A study of Mus musculus with 6 samples.

Results

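The genes of 2 energy-dissipating cycles were followed in mouse inguinal white fat: the creatine cycle genes Gatm, Gamt, Slc6a8, Ckb and Alpl, and Atp2a2, which encodes the calcium pump SERCA2. They were chosen by gene symbol and make up 6 of the 14861 genes in the table. The filter on low values, which required a library mean of 1 or more, was passed by all 6 and by 12993 genes in all. None was called different between knockout and control mice in the test across all genes, and the groups overlapped for all 6.

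The control group, Flox, held 3 libraries from littermates carrying floxed Igf1r, the insulin-like growth factor 1 receptor gene, from the line B6;129-Igf1rtm2Arge/J. The knockout group, AdIGF1RKO, held 3 libraries from mice that also carried the Adipoq-Cre transgene B6; FVB-Tg (Adipoq-Cre)1Evdr/J, in which the adiponectin promoter drives Cre in adipocytes, so the other cells of the depot keep the receptor gene. Both groups were kept for 24 weeks on chow in which fat supplied 10% of the calories. Food was withheld overnight before the subcutaneous groin fat was dissected. The labels state neither the age at the start, nor the sex, nor any pooling of tissue.

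Creatine is made in 2 steps. GATM makes guanidinoacetate from arginine and glycine, GAMT methylates that to creatine, and the transporter SLC6A8 takes creatine up from blood. Creatine kinase B charges creatine with phosphate from ATP, and in thermogenic fat the phosphatase ALPL (also called TNAP) is known to hydrolyse phosphocreatine again, so that the cycle spends ATP and releases heat. SERCA2 pumps calcium into the endoplasmic reticulum at the cost of ATP, and cycling of calcium through this pump and its release channels is known as a heat source of beige fat that does not need the uncoupling protein UCP1.

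Values are scaled CPM, the reads of a gene per 1000000 reads of a library of average size after median-ratio scaling. Recovered reads were 60617147 to 70695527 per library. The members had between 345 and 6620 reads in a library, where counting error alone is 5.38% and 1.23% of the value. Igf1r, the floxed gene, had 6.44, 6.47 and 5.86 scaled CPM in Flox 1, 2 and 3 and 6.11, 5.27 and 4.85 in AdIGF1RKO 1, 2 and 3. These overlapped (log2 difference -0.18, limma adjusted p = 0.998). A count over the whole gene also holds exons outside the deleted part and the RNA of other cells, so it does not check the labels.

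Skeletal muscle RNA set 2 libraries apart. The 16 fibre marker genes in the table took 12.11% of reads in Flox 3 and 4.34% in AdIGF1RKO 3, against 0.0520% to 0.827% in the other 4. All 14 tested fast fibre markers had lower means in AdIGF1RKO (median log2 difference -1.51, none called by limma), with summed levels of 969.7 to 152069 scaled CPM in Flox and 471.1 to 43983 in AdIGF1RKO. Adipocyte markers were plentiful in every library, at summed levels of 37084 to 48983 in Flox and 41134 to 43358 in AdIGF1RKO. In bulk tissue, fewer cells of a type and less RNA per cell cannot be told apart.

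**Figure D1:**
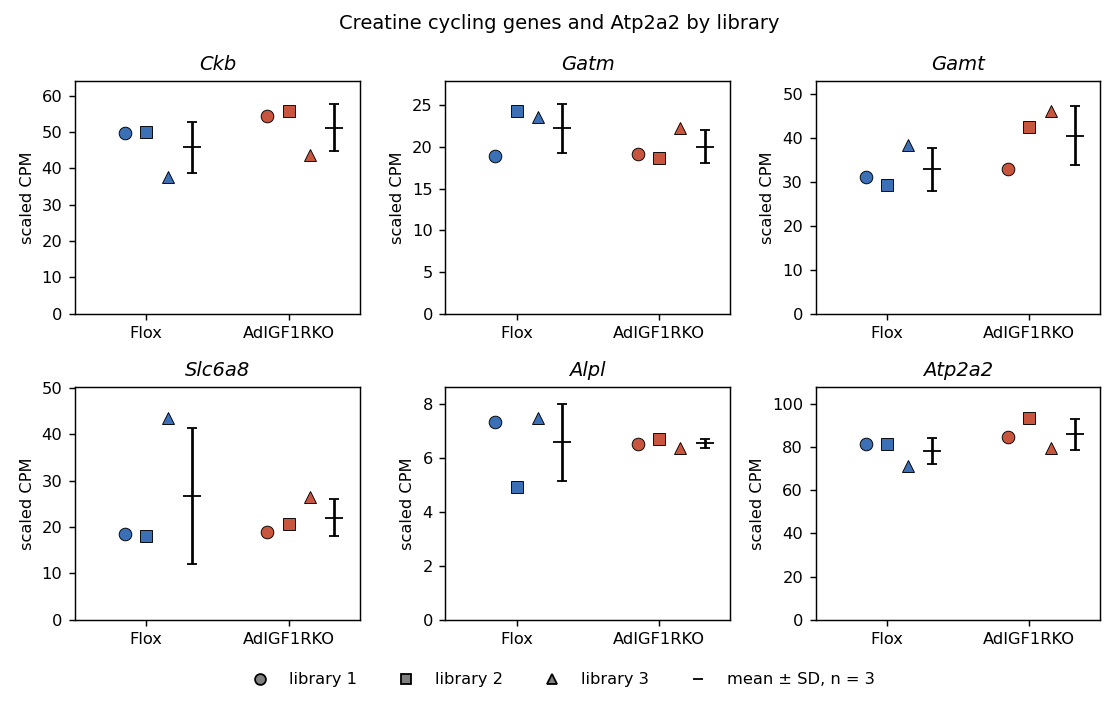
Scaled CPM of the 6 genes in each library, with the mean and SD of 3 libraries per group; the axes start at 0. The groups overlap for every gene, and Flox 3 (triangle) stands at 43.62 for Slc6a8 against 18.10 to 26.57 in the other libraries.

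Creatine synthesis: Gatm had 18.90, 24.28 and 23.56 scaled CPM in Flox 1, 2 and 3 and 19.15, 18.73 and 22.28 in AdIGF1RKO 1, 2 and 3. Flox 1 lay with AdIGF1RKO 1 and 2 at the low end, so the groups overlapped. The means were 22.25 ± 2.92 (SD, n = 3) and 20.06 ± 1.94 (SD, n = 3), a log2 difference of -0.14 with a 95% interval from -0.46 to 0.18 (limma adjusted p = 0.998). Without Flox 1 the log2 difference was -0.25, and without Flox 2 it was -0.07. An exact permutation test over the 6 libraries, two-sided, gave p = 0.3, and the smallest p it can give with 3 against 3 is 0.1.

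Gamt had 30.95, 29.19 and 38.35 scaled CPM in Flox and 32.93, 42.41 and 45.95 in AdIGF1RKO. AdIGF1RKO 3 and 2 were highest, but Flox 3 exceeded AdIGF1RKO 1. The means of 32.83 ± 4.86 and 40.43 ± 6.73 gave the largest difference of the 6 genes, 0.29 on the log2 scale (95% interval -0.10 to 0.68; limma adjusted p = 0.998; two-sided exact permutation p = 0.2). In fold terms the interval ran from 0.931 to 1.60. AdIGF1RKO exceeded Flox at each library number, by 0.09, 0.52 and 0.25 on the log2 scale. The interval lay above 0 with the muscle share as a covariate (0.37, from 0.13 to 0.62), without Flox 3 (0.40, from 0.02 to 0.78), without AdIGF1RKO 1 (0.43, from 0.05 to 0.80), with equal library sums (0.41, from 0.07 to 0.74) and with array weights (0.40, from 0.10 to 0.70). None of these passed adjustment over all genes, with limma adjusted p from 0.746 with array weights to 0.9998 without AdIGF1RKO 1. These settings were picked by their intervals out of 21 alternatives. In them, 244 (equal sums) to 857 (array weights) of 12993 tested genes had an unadjusted limma p under 0.05. With equal sums the median of all genes was 0.09, and relative to it Gamt was at 0.31, as in the main scaling. The interval reached below 0 in other settings, and the lowest differences were 0.13 as deposited (from -0.45 to 0.72), 0.19 without AdIGF1RKO 3 (from -0.25 to 0.64) and 0.21 without Flox 2 (from -0.25 to 0.67).

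Promoters are shown for Gamt and Ckb because Ckb was lowest and Gamt highest of its group in library 3, the muscle-rich library. Atp2a2 was likewise lowest and Slc6a8 highest there in both groups, but these genes were not matched to a promoter. Neither Gamt nor Ckb passed the test against the muscle share (limma adjusted p = 0.173 for Ckb and 0.141 for Gamt). The 250 bases before the start are from RefSeq on GRCm38.p6; Gamt is at chr10:80261013-80261262 and Ckb at chr12:111672339-111672588, both on the minus strand and written 5′ to 3′. Capitals mark matches, on either strand, to 1 of 3 motifs. The first motif is TATAAA, known as a promoter element bound by the general machinery. The second motif is CCAAT. The third motif, named the GC box for its make-up, is GGGCGG.
Gamt: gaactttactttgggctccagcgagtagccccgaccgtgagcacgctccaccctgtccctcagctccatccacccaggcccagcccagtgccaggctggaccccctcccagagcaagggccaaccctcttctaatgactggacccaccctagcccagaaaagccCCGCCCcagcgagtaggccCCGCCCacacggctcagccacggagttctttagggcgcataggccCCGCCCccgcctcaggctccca
Ckb: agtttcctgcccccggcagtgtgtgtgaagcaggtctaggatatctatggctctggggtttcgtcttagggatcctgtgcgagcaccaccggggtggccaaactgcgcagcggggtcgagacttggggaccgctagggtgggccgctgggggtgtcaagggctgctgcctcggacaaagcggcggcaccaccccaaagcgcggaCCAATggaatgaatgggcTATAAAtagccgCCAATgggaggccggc
The Gamt window held 3 GC boxes (GGGCGG, read on the other strand) and no TATAAA or CCAAT. The Ckb window held a TATAAA ending 23 bases before the start and 2 CCAAT, and no GC box. Of 32817 windows of this length, 12.4% held TATAAA, 33.8% CCAAT and 32.7% GGGCGG. Gatm, the other synthesis gene, had 2 CCAAT. Of 2 Alpl windows, 1 held 2 overlapping GC boxes and the other a TATAAA on the other strand. A match is a description of letters, not a bound site. Of the 6 genes 4 were matched in the promoter table.

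Creatine uptake: Slc6a8 had 18.46, 18.10 and 43.62 scaled CPM in Flox and 18.91, 20.70 and 26.57 in AdIGF1RKO. A single library, Flox 3, carried the spread of the Flox group, and AdIGF1RKO 3 was highest in its own group. The means were 26.73 ± 14.63 and 22.06 ± 4.01, with a log2 difference of -0.16 and the widest interval of the 6, from -0.99 to 0.67 (limma adjusted p = 0.998; two-sided exact permutation p = 1). Without Flox 3 the log2 difference was 0.24, and without Flox 3 and AdIGF1RKO 3 it was 0.11, so the sign turned on a library with 12.11% muscle reads. It was -0.35 without Flox 1, -0.37 without Flox 2, -0.06 without AdIGF1RKO 1 and -0.30 without AdIGF1RKO 3. The part of muscle RNA in this difference was not tested beyond these fits.

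Creatine kinase: Ckb had 49.64, 50.03 and 37.61 scaled CPM in Flox and 54.31, 55.66 and 43.66 in AdIGF1RKO. The libraries numbered 3 were lowest in both groups, and Flox 1 and 2 lay above AdIGF1RKO 3. Means were 45.76 ± 7.06 and 51.21 ± 6.57, a log2 difference of 0.16 (95% interval -0.21 to 0.53; limma adjusted p = 0.998; two-sided exact permutation p = 0.5). Each AdIGF1RKO library exceeded the Flox library of its own number, by 0.13, 0.15 and 0.21 on the log2 scale. The same held for Gamt and Atp2a2. The labels do not state that equal numbers mark pairs, and the share of all genes with this pattern was not counted. Leaving out Flox 3 gave 0.03, leaving out AdIGF1RKO 2 gave 0.10 and leaving out AdIGF1RKO 3 gave 0.27. With the values as deposited the log2 difference was 0.00211, where the median of all genes was -0.18.

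Phosphocreatine hydrolysis: Alpl, also known from bone and blood vessels, was the lowest of the 6. It had 7.32, 4.92 and 7.50 scaled CPM in Flox and 6.52, 6.72 and 6.38 in AdIGF1RKO. The AdIGF1RKO libraries were close together, inside the Flox range. The log2 difference was 0.01, with a 95% interval from -0.39 to 0.41 (limma adjusted p = 0.998; two-sided exact permutation p = 1). In fold terms this interval ran from 0.763 to 1.33. Leaving out Flox 2 gave -0.16 and leaving out Flox 3 gave 0.10. Of the 8 tested endothelial markers 7 had higher means in AdIGF1RKO and none was called, with summed levels of 498.5 to 588.7 in Flox and 586.5 to 729.2 in AdIGF1RKO; their part in the Alpl level was not tested.

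Calcium pump: Atp2a2 was the highest of the 6 in scaled CPM, at 81.51, 81.41 and 71.32 in Flox and 84.67, 93.59 and 79.49 in AdIGF1RKO. AdIGF1RKO 1 and 2 were the highest libraries, and AdIGF1RKO 3 lay below Flox 1 and 2. The means were 78.08 ± 5.86 and 85.92 ± 7.13, a log2 difference of 0.14 (95% interval -0.11 to 0.38; limma adjusted p = 0.998; two-sided exact permutation p = 0.3). In fold terms the interval ran from 0.926 to 1.30, the narrowest of the 6. By library number, AdIGF1RKO exceeded Flox here too, by 0.05, 0.20 and 0.15 on the log2 scale. The log2 difference was 0.07 without Flox 3 and 0.07 without AdIGF1RKO 2. With the values as deposited it was -0.03, against that median of -0.18.

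Against the whole table, 0 of the 6 genes were called by limma, and the share of all tested genes called was 0%. None of the 6 had non-overlapping groups, against 8.27% of tested genes, and none had an unadjusted limma p under 0.05, against 2.96%. DESeq2 called 0.177% of genes and none of the 6. By sign, 4 of 6 had positive log2 differences with a median of 0.07, while 5820 of 12993 tested genes were positive with a median of -0.02. That count was 2 of 6 with the values as deposited, where 14.82% of all tested genes were positive. It was 5 of 6 with array weights, with the muscle share as a covariate, without Flox 3 and without both libraries numbered 3. In those settings 45.46% to 50.51% of all tested genes were positive. The count was 3 of 6 with adipocyte-marker scaling, with edgeR, with DESeq2, without Flox 2 and without AdIGF1RKO 2. There 42.79% to 46.23% of all tested genes were positive. In the remaining settings it stayed at 4 of 6.

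**Figure D2:**
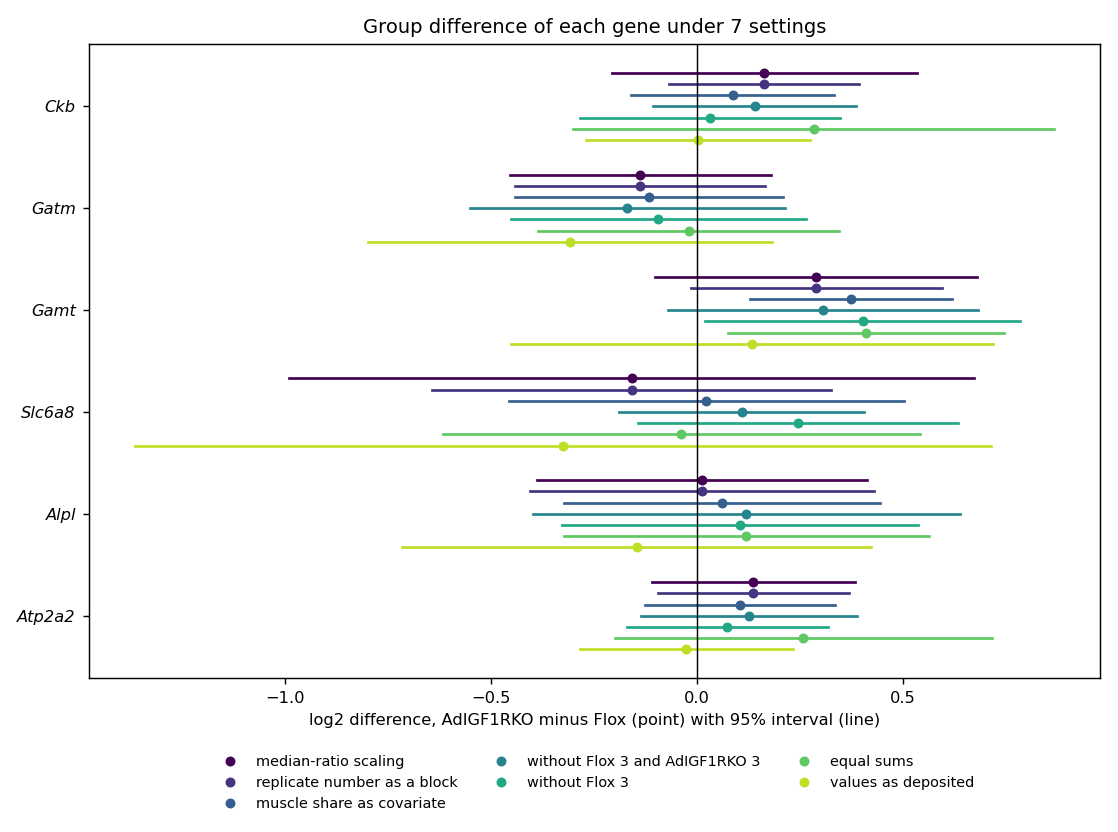
Log2 difference, AdIGF1RKO minus Flox, of the 6 genes under 7 settings; points are estimates and lines 95% intervals. The Slc6a8 estimate crosses 0 between -0.16 with all libraries and 0.24 without Flox 3. The Gamt and Ckb estimates stay above 0 in the settings shown. The Ckb interval includes 0 in all of them, and the Gamt interval in some, such as median-ratio scaling and values as deposited.

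The muscle-rich library 3 of each group was set beside the other 2, as a description. Comparing library 3 with the mean of libraries 1 and 2, Ckb was at a ratio of 0.755 in Flox and 0.794 in AdIGF1RKO, and Atp2a2 at 0.876 and 0.892. Gamt was at 1.28 and 1.22, and Gatm at 1.09 and 1.18. Alpl was at 1.23 and 0.964, on either side of 1, and Slc6a8 at 2.39 and 1.34. Ckb and Atp2a2 were thus below that mean in library 3 of both groups, and Gamt, Gatm and Slc6a8 above it. For Gatm, Flox 3 (23.56) still lay below Flox 2 (24.28). Of all 12993 tested genes, 5452 were lower in Flox 3 than in both other Flox libraries, as were 2 of the 6 members. Flox 3 was the highest of all 6 libraries for 3999 tested genes and for 2 members.

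A limma fit with the muscle share and the group gave a coefficient per doubling of the share. It was -0.06 for Ckb (adjusted p = 0.173), 0.06 for Gamt (adjusted p = 0.141) and 0.13 for Slc6a8 (adjusted p = 0.115), and none of the 6 passed, against 3.06% of tested genes. The muscle isoforms did pass: the coefficient was 1.10 for both Ckm and Atp2a1 (adjusted p = 5.39e-07 each).

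**Figure D3:**
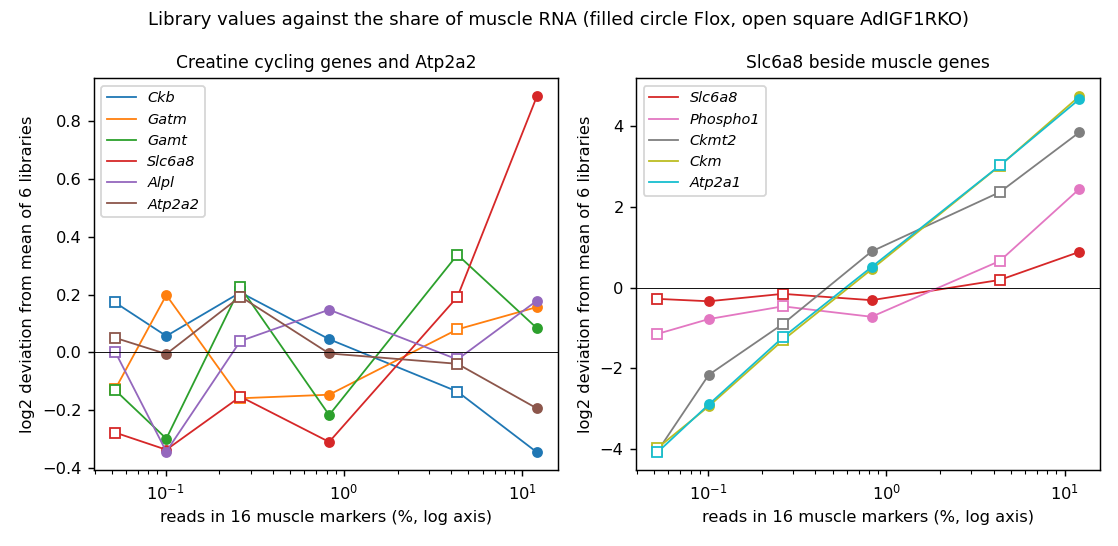
Log2 deviation of each library from the mean of 6, against the percent of reads in 16 muscle markers on a log axis; filled circles are Flox and open squares AdIGF1RKO. Slc6a8 is highest at 12.11% muscle reads and Ckb lowest there, and Ckm and Atp2a1 span a far wider range.

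The kinases and pumps were set side by side per kilobase of exon, since read counts also rise with RNA length. The length is the union of all annotated exons of a gene, so levels and shares compare different genes only roughly. Ckb had 12.99 to 19.23 scaled CPM per kilobase in the 6 libraries, while Ckm, the muscle creatine kinase, ran from 10.72 in AdIGF1RKO 1 to 4670 in Flox 3. Ckb was 63.0% of the summed level of Ckb, Ckm and the mitochondrial Ckmt2 in AdIGF1RKO 1 and 0.264% in Flox 3. Atp2a2 was likewise 62.4% of the 3 SERCA genes in AdIGF1RKO 1 and 0.536% in Flox 3, as Atp2a1 of fast muscle ran from 4.75 to 2172 per kilobase. The share of each member was lowest where the muscle isoform was highest, while its own level ranged over less than 1.5 times. Per kilobase, the member means over 6 libraries ran from Gamt (25.37) through Ckb (16.75), Atp2a2 (13.48), Gatm (7.05) and Slc6a8 (4.68) to Alpl (1.63).

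**Figure D4:**
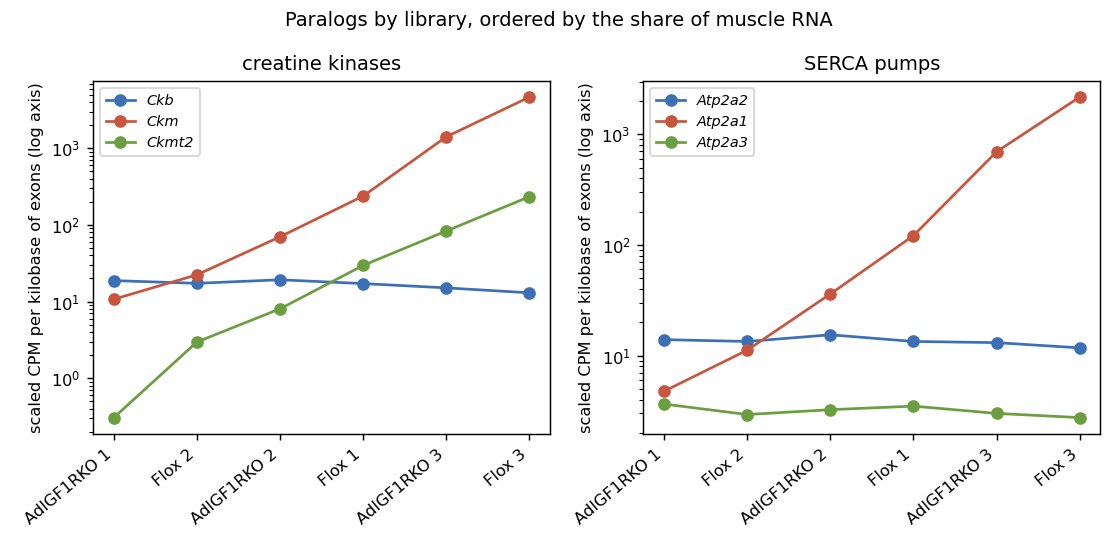
Scaled CPM per kilobase of exons, on log axes, of 3 creatine kinases and 3 SERCA pumps, with libraries ordered by muscle share. Ckb and Atp2a2 stay nearly level, at 12.99 to 19.23 and 11.73 to 15.39, while Ckm and Atp2a1 climb to 4670 and 2172.

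Genes whose profile over the 6 libraries was closest to each member were found by the root mean square distance between centred log2 values, as a description over 6 libraries. For Ckb these were Dgkh (0.0325), Wasf2 (0.0335) and Tmem164 (0.0366), against a spread of 0.190 of Ckb itself. For Atp2a2 they were Twf1 (0.0161), Plekha3 (0.0196) and Hspa13 (0.0220), and 1232 genes lay within 0.1 of it. Gamt had the fewest close genes, 18 within 0.1, led by Eif2b3 (0.0504), Nfib (0.0630) and Ptger3 (0.0638). Slc6a8 was closest to Aamdc (0.0318), Sgcb (0.0341) and Setd7 (0.0390), Gatm to Sav1 (0.0479), Znhit6 (0.0516) and Ppfia1 (0.0538), and Alpl to Wrap73 (0.0655), Tbl1xr1 (0.0672) and Swt1 (0.0694). Among the 15 pairs of members, Ckb and Atp2a2 were closest (0.0947) and Ckb and Slc6a8 farthest (0.611). The closest distance is a common one, since 435 genes lay within 0.1 of Ckb. It is also near the spread of Atp2a2 itself, 0.115.

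The pathway around the 6 genes was read from 7 lists, and 0 genes of any list were called by limma in either direction. Of the other kinases, carriers and phosphatases, 4 of 5 were tested, 1 positive and 3 negative with a median log2 difference of -1.07. The 3 negative ones, Ckm, Ckmt2 and the phosphocholine phosphatase Phospho1, were all called for the muscle share. Slc16a12, a creatine carrier of the plasma membrane, was the positive one, at 7.52, 6.90 and 8.43 scaled CPM in Flox and 9.44, 10.74 and 14.70 in AdIGF1RKO. Its groups did not overlap, the ratio of means was 1.53 and the log2 difference was 0.53 with a 95% interval from 0.11 to 0.96 (limma adjusted p = 0.998).

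Of 9 phosphoryl transfer partners 3 were positive (median -0.21), and 3 were called for the muscle share: Ak1, Slc25a4 and Vdac1, with log2 differences of -0.93, -0.59 and -0.39. Ak3, a mitochondrial adenylate kinase, had 170.7 ± 7.14 in Flox and 189.9 ± 5.13 in AdIGF1RKO without overlap. Of 22 tested genes of arginine, glycine and methyl group supply 10 were positive (median -0.01). In that list 2 did not overlap and were lower: Shmt1, a serine and glycine converting enzyme, at 5.08 ± 2.18 against 2.85 ± 0.476, and the methionine synthase Mtr at 12.20 ± 1.93 against 9.96 ± 0.963.

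Of 10 other SERCA genes, their regulators and luminal binding proteins, 2 were positive (median -0.43), and 4 were called for the muscle share. The regulator phospholamban, Pln, was at 4.39 ± 1.01 and 3.37 ± 1.03, and the pump Atp2a3 at 16.12 ± 2.04 and 17.38 ± 1.72. Of 19 calcium transport genes 10 were positive (median 0.0004). Among these Orai2, a subunit of store-operated calcium channels, was at 2.37 ± 0.401 in Flox and 3.51 ± 0.331 in AdIGF1RKO, without overlap (log2 difference 0.42, limma adjusted p = 0.998).

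Of 9 tested phosphate, pyrophosphate and vitamin B6 genes 5 were positive (median 0.06). Of 8 tested thermogenic genes 3 were positive (median -0.24). Cox7a1 and Cox8b, at log2 differences of -0.68 and -0.40, were called for the muscle share. The coactivator Ppargc1a was at 3.89 ± 1.13 in Flox and 3.12 ± 0.846 in AdIGF1RKO, and the receptor Adrb3 at 372.2 ± 108.4 and 308.4 ± 60.79. The receptor Adra1a was at 7.85 ± 1.28 and 8.58 ± 0.490. Ucp1, Sln and Ckmt1 were not analysed here.

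**Figure D5:**
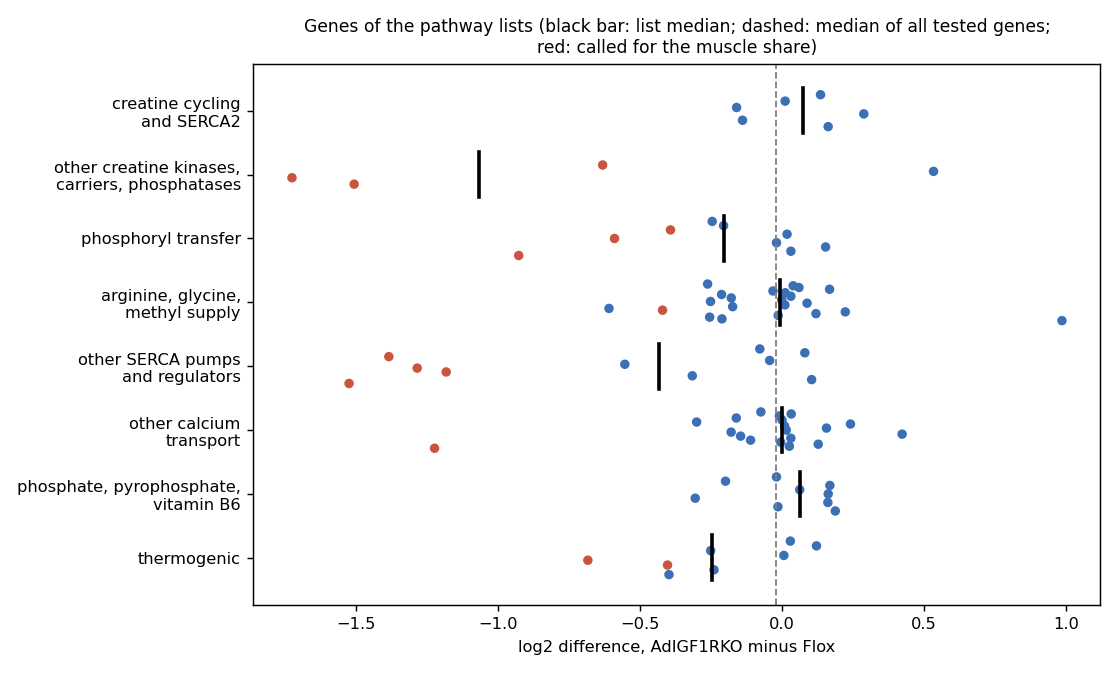
Log2 difference, AdIGF1RKO minus Flox, of each tested gene of the 6 members and 7 lists; bars are list medians, the dashed line is the median of all tested genes, and red points are genes called for the muscle share. The lowest median, -1.07, belongs to the list that holds Ckm and Ckmt2.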

How the data were processed

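Polyadenylated RNA of inguinal fat was sequenced as stranded libraries, 3 per group, per the labels' protocols. The deposited signal, which the table calls FPKM, is a whole read count times 1000000000 over a single divisor per library (39206000 to 81802000), for 100.0% of values within a tolerance of 0.5, and is not divided by gene length. Reads were recovered from it. The build is GRCm39, per the submitters' processing notes; the labels name no aligner, counter or annotation. The table has no value of 0, so genes without reads in a library are not analysed here.

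Size factors by median ratio (0.728 to 1.16) turned these reads into scaled CPM, which were tested with limma 3.58.1 (R 4.3.3) with an intensity trend on log2(value + 1), which understates changes of low genes. Genes with a mean of at least 1 were kept, tests were two-sided, and Benjamini-Hochberg adjustment ran over all 12993 genes at 0.05. Alternatives used edgeR 4.0.16 and DESeq2 1.42.0, among 21 in all. The fit was tested on simulated data. The simulation gave all genes the same variability setting and the libraries no difference in muscle share. It therefore does not check the fit on libraries that differ as these do. Exon lengths, the union of all annotated exons of a gene, came from a GRCm38 annotation and serve only the levels per kilobase. They can exceed the length of the RNA present.

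The 6 members and all lists were chosen with earlier results of these data known. Named genes were the members, 11 fixed pathway genes where present, and up to 3 others per list by smallest unadjusted p; of these the text describes a part, and 1 gene that the rule takes is not reported here. Lists of 10 cell types were read the same way: the summed levels of smooth muscle (588.4 to 829.5), Schwann (321.4 to 527.7), neutrophil (60.36 to 86.72), macrophage (1866 to 3390), lymphocyte (313.2 to 582.7), epithelial (1.08 to 6.11) and slow fibre markers (2.47 to 16.37, 2 of 8 genes in the table) overlapped between groups. Same-numbered libraries correlated at 0.347, 0.349 and 0.834 in their deviations from the group means. Flox 1 correlated with AdIGF1RKO 2 at 0.326, and Flox 2 correlated more with AdIGF1RKO 1 (0.70). The highest value is that between the 2 muscle-rich libraries, so these correlations cannot decide whether the numbers mark pairs. The main fit and the permutation test ignore the numbers, and a block on them is an alternative. The pairing in that block comes from the numbers in the titles. P-values measure the spread between these libraries, which may be technical where libraries do not come from separate animals.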

Additional observations from a re-analysis of the deposited data

How the results depend on the processing

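No member was called under any of the 21 alternatives. The smallest limma adjusted p was 0.721, for Gatm with the values as deposited. That was also the smallest of all tested genes in that setting, where their median log2 difference was -0.18. Relative to the median, Gatm was at -0.12 there and in the main scaling. DESeq2 called 23 genes, and leaving out 1 library in turn called 0 to 1, the 1 being without Flox 1. With the replicate number as a block (paired) 0 genes were called and no member's call changed; the estimates cannot move in this balanced design, and the Gamt interval was -0.02 to 0.59. Genes at an unadjusted p under 0.05 numbered 385, against 582 with the block, 857 with array weights, 244 with equal sums, 231 with adipocyte-marker scaling and 242 without AdIGF1RKO 2. For edgeR they numbered 378, with 0 called.

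Signs turned for 4 members, and the cause was not tested. Gatm had 0.0016 with array weights. Slc6a8 had 0.21 with array weights, 0.02 with the muscle covariate, 0.11 without both number 3 libraries and -0.37 to 0.24 on leaving out 1 library. Alpl had -0.15 with the values as deposited, -5.2e-05 with adipocyte-marker scaling, -0.00917 with edgeR, -0.00602 with DESeq2, -0.04 with array weights and -0.16 to 0.10 on leaving out 1 library. Atp2a2 had -0.03 with the values as deposited. That scaling moved the median of all genes by -0.17, and equal sums moved it by 0.11; relative to the median, Atp2a2 was at 0.16 in the main scaling and as deposited. Gamt was positive throughout, from 0.13 to 0.43, and Ckb from 0.00211 to 0.28. The number of libraries, 3 a group, limits the precision to the printed intervals.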
